A study of Homo sapiens with 12 samples.

Results

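A set of 10 genes linked to the restraint or the output of mitogen-activated protein kinase (MAPK) signalling was followed through an RNA-sequencing experiment. The cells were MCF10A, a human mammary epithelial cell line that does not form tumours. The rule for the set is a list of names and uses no measured value, but the list was drawn up with earlier results of these data known. It holds the phosphatase genes DUSP1, DUSP4, DUSP5, DUSP6 and DUSP7, the Sprouty genes SPRY2 and SPRY4, the Sprouty-related genes SPRED1 and SPRED2, and PHLDA1. They are 10 of the 23459 genes in the deposited count table, and all 10 passed the filter on low counts.

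The cells carried a doxycycline-inducible allele of YAP5SA, a mutant of the transcriptional coactivator YAP that escapes inhibition by the Hippo kinases. They had been infected with an expression vector for JUN, a subunit of the AP-1 transcription factor, or with the empty vector. Each population then was treated with Dox (doxycycline at 100 ng/ml) or, as the control, with the solvent (ethanol, EtOH). This gave 4 groups of 3 biological replicates: vector EtOH and JUN EtOH as the uninduced groups, and vector Dox and JUN Dox as the induced ones. Every group, the controls included, carried the inducible allele. The study's MCF10A medium held horse serum, insulin, hydrocortisone, cholera toxin and epidermal growth factor, a ligand that drives the RAS to ERK cascade. No group lacked the inducible allele, so Dox itself and the induction of YAP5SA cannot be told apart. The labels give no duration of the induction, for which the study's methods describe a general treatment of this allele of less than a day. No number of separate infections is stated, so the JUN vector and other differences between the infected populations cannot be told apart either.

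MAPK cascades carry signals from growth factor receptors and from stress through a chain of kinases that ends in ERK, JNK or p38. Many genes that active ERK switches on encode proteins that shut the same cascade off, and their transcripts are therefore often read as a record of recent ERK output. The dual-specificity phosphatases (DUSPs) remove phosphate from the threonine and the tyrosine that activate a MAPK. DUSP1, DUSP4 and DUSP5 act in the nucleus and DUSP6 and DUSP7 in the cytoplasm. DUSP5, DUSP6 and DUSP7 prefer ERK, while DUSP1 and DUSP4 also act on JNK, the kinase that phosphorylates JUN. Sprouty and SPRED proteins act further upstream, between the receptor and RAF. PHLDA1 encodes a protein with a pleckstrin homology-like domain whose transcript is a common component of ERK output scores.

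On GRCh37, the build of the alignment, 9 of the genes lie at the following places in GENCODE v44: DUSP1 at chr5:172195099-172198198, SPRY4 at chr5:141689992-141706020, DUSP6 at chr12:89741012-89746278, PHLDA1 at chr12:76419227-76425556, DUSP7 at chr3:52082935-52090587, SPRY2 at chr13:80910111-80915261 and SPRED2 at chr2:65537985-65659771, all on the minus strand, and DUSP5 at chr10:112257665-112271291 and SPRED1 at chr15:38545037-38649450 on the plus strand. Their merged exons ranged from 2013 bases for DUSP1 to 7750 bases for SPRED1. Exon GC content ranged from 36.5% in SPRED1 to 59% in DUSP7.

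The bases before the transcription start are shown for DUSP1, the most abundant of the genes. They are also shown for DUSP6 and PHLDA1, which moved most with YAP5SA in vector cells among the genes matched. SPRY2 and SPRY4, which went opposite ways with JUN, are shown as well. The RefSeq promoter table (GRCh38.p14) held 11 windows for 8 of the 10 genes. DUSP4 and DUSP5 were not matched in it. The 250 bases before the start were searched on both strands for the AP-1 site TGANTCA, the cyclic AMP response element TGACGTCA and its shorter form TGACG, the TEAD site GGAATG, the ETS site CCGGAA and the CArG box. TGACGTCA holds TGACG once on each strand, so these matches overlap. Capitals mark every match on either strand, all sequences run 5′ to 3′ on the strand of the gene, and DUSP6 is shown without capitals because none of the motifs occurred in it. SPRY2 had 3 windows, of which only the first held a match and is shown.
DUSP1, chr5:172771196-172771445, minus strand: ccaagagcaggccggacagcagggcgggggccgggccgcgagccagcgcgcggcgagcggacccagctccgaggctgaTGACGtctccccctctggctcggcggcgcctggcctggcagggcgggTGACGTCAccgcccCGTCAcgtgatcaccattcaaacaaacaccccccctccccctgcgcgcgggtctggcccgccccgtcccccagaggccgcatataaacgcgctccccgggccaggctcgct
DUSP6, chr12:89352502-89352751, minus strand: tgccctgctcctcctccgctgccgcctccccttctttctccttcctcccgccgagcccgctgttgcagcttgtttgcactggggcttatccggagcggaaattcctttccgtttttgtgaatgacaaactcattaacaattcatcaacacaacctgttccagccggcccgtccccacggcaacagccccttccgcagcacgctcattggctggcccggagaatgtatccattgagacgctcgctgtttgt
PHLDA1, chr12:76031777-76032026, minus strand: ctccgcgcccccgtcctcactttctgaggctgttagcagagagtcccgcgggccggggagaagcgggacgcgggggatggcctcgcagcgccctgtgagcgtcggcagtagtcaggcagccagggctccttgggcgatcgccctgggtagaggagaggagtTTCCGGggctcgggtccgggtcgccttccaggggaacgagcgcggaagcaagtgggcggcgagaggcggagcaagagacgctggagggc
SPRY2, chr13:80341127-80341376, minus strand: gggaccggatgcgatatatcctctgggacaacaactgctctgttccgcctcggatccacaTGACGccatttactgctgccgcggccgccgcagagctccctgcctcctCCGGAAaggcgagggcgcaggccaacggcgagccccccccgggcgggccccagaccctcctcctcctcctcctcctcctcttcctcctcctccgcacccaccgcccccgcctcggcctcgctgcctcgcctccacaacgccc
SPRY4, chr5:142324248-142324497, minus strand: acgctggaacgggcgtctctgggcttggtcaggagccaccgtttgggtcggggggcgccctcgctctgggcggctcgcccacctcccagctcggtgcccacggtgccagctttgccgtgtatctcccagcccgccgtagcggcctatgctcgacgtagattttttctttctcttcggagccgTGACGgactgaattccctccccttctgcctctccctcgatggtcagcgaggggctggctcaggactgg

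Of the 8 genes, DUSP1 alone held TGACGTCA, which began 125 bases before its start. The element occurred in 1.65% of the 35116 promoter windows of all genes. It also held 4 matches to TGACG, including the 2 inside that element. SPRY2 and SPRY4 held 1 TGACG each, 190 and 68 bases before the start, and 21.2% of all windows held at least 1. The ETS site, the sequence bound by factors that ERK phosphorylates, occurred in SPRY2 and in PHLDA1 and in 14.5% of all windows. The AP-1 site, the TEAD site and the CArG box occurred in none of the 8 genes within these 250 bases, and in 6.57%, 11.9% and 1.16% of all windows. These matches describe the letters in a short window, and binding was not measured in these libraries.

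The libraries held 18594867 to 28993487 counts, and each of the 10 genes had at least 318 counts in every library, so none of their values rests on a few reads. JUN, counted from the cell's own gene and the vector together, averaged 47.6 ± 10.5 CPM (counts per 1000000 of the library's counts in tested genes, adjusted by TMM factors; mean ± SD, n = 3) in vector EtOH cells, 189.7 ± 4.15 CPM in vector Dox cells, 1279 ± 187 CPM in JUN EtOH cells and 1248 ± 92.3 CPM in JUN Dox cells. JUN was thus higher with the vector (log2 fold change 4.75 ± 0.18 without Dox) and also with Dox in vector cells (1.99 ± 0.16). YAP1 was 1.32-fold higher with Dox in vector cells (adjusted p = 0.0819) and 1.19-fold higher with Dox in JUN cells, where the groups overlapped (adjusted p = 0.308). Neither passed the test, so the YAP1 counts do not by themselves show the induction, and the groups are taken as the labels give them. All 10 markers of basal mammary epithelium were present, at summed levels of 10809 to 11640 CPM in vector EtOH, 6773 to 7783 CPM in vector Dox, 12181 to 13687 CPM in JUN EtOH and 7867 to 11289 CPM in JUN Dox. The 6 luminal markers summed to 1282 to 1543 CPM in vector cells and to 511 to 930.2 CPM in JUN cells. Among white blood cell markers, PTPRC was at 3 counts or fewer in every library and CD3E at 0, while CD68, which macrophages and other cells express, was at 17.0 to 29.8 CPM in vector cells and 50.8 to 93.3 CPM in JUN cells. The 3 endothelial markers never summed to more than 2.10 CPM, and the 7 fibroblast markers summed to 111 to 162 CPM over the groups. The part of these marker shifts in the results was not tested. Of the JUN Dox libraries, 2 stood apart in composition: the correlation of a gene's deviation from its group mean with exon GC content was -0.36 in replicate 1 and 0.36 in replicate 3, against -0.20 to 0.22 in the other 10 libraries. With a GC covariate in the fit the number of the 10 genes called was the same in all 5 comparisons, while the number over all genes rose, for example from 4443 to 5394 with YAP5SA in vector cells. In bulk RNA, fewer cells of a state and less RNA per cell cannot be told apart.

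Compared per kilobase of exon, the 10 genes spanned a wide range. DUSP1 was the most abundant at a mean over the 12 libraries of 225 CPM per kilobase, followed by PHLDA1 at 36.9, DUSP4 at 29.7, DUSP5 at 23.1, DUSP7 at 16.2 and DUSP6 at 14.9 on the same scale. SPRED1 at 10.6, SPRED2 at 8.69, SPRY4 at 8.26 and SPRY2 at 6.34 were the lowest. In this mean over the 12 libraries, the phosphatases and PHLDA1 were all above the Sprouty and SPRED genes. The order did not hold in every group. DUSP5 was at 6.72 CPM per kilobase in vector EtOH, against 10.4 for SPRED1. DUSP6 was at 7.59 in vector Dox and 8.16 in JUN Dox, against 9.34 and 10.2 for SPRED1.

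**Figure D1:**
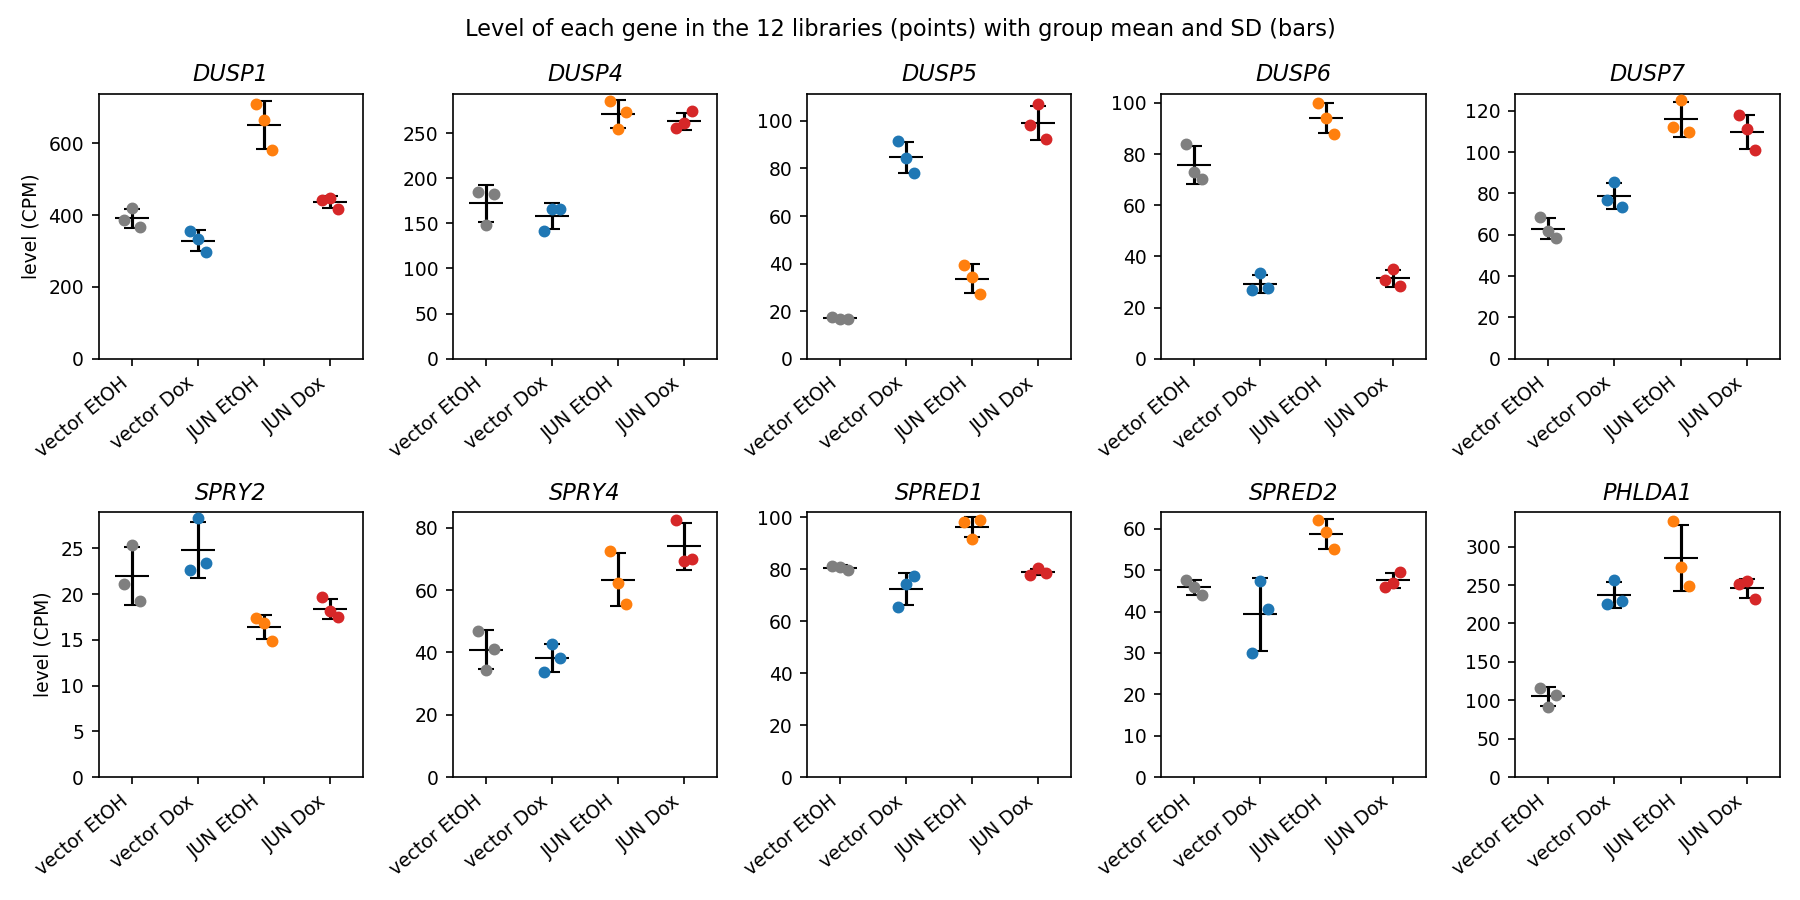
Level of each gene in CPM (vertical axis, from 0) in the 4 groups (horizontal axis). Each point is 1 of the 3 libraries of a group, and the bars show the group mean and SD. DUSP5 stood at 16.7 to 17.7 CPM in vector EtOH, at 27.3 to 39.6 CPM in JUN EtOH and at 78.2 to 107 CPM in both Dox groups. DUSP6 ran the other way with Dox, from 70.3 to 99.9 CPM in both EtOH groups to 26.8 to 35.1 CPM in both Dox groups.

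The first comparison asked how the 10 genes responded to induction of YAP5SA when JUN was not overexpressed. In vector cells the ERK phosphatases moved in opposite directions: DUSP5 rose 4.96-fold and DUSP6 fell 2.58-fold. PHLDA1 rose 2.26-fold and DUSP7 1.25-fold. Across the 14775 genes tested, 15.6% were called higher and 14.4% lower (edgeR quasi-likelihood test, adjusted p under 0.05), and of the 10 genes 3 were called higher, 1 lower and 6 were not called. The median log2 fold change of the 10 genes was -0.11, beside 0.01 over all genes tested. The counts in either direction were thus small, and the changes of DUSP5, DUSP6 and PHLDA1 were the only ones above 1 in size on the log2 scale.

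DUSP5, the nuclear ERK-selective phosphatase, was at 17.7, 16.8 and 16.7 CPM in the 3 vector EtOH libraries and at 91.4, 84.4 and 78.2 CPM in the 3 vector Dox libraries. The lowest induced library was thus far above the highest control library. The log2 fold change was 2.31 ± 0.13 (SE, n = 3 per group; adjusted p = 6.87e-09, edgeR). DUSP6, the cytoplasmic phosphatase for the same kinase, was at 84.0, 72.8 and 70.3 CPM in vector EtOH and at 26.8, 33.4 and 27.7 CPM in vector Dox. The groups were again apart, with the induced libraries below, and gave a log2 fold change of -1.37 ± 0.12 (adjusted p = 5.86e-07, edgeR). The exons of DUSP6 share 1105 bases with an antisense long non-coding RNA in GENCODE, and the sources do not state that counting used the strand, so reads of the pair cannot be told apart.

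PHLDA1 was at 116, 91.7 and 107 CPM in vector EtOH and at 226, 256 and 229 CPM in vector Dox. All 3 induced libraries lay above all 3 controls, with a log2 fold change of 1.18 ± 0.12 (adjusted p = 4.59e-06, edgeR). Its exons share 553 bases with PHLDA1-AS1, with the same limit on strand. DUSP7 was at 68.5, 61.9 and 58.3 CPM in vector EtOH and at 76.8, 85.6 and 73.5 CPM in vector Dox. These groups did not overlap either, but they lay close together, and the log2 fold change of 0.32 ± 0.10 (adjusted p = 0.0252, edgeR) lost its call in 5 of 21 alternatives (adjusted p 0.00932 to 0.126). Without vector EtOH replicate 2, vector EtOH replicate 3 or vector Dox replicate 2 the adjusted p of DUSP7 was 0.0818, 0.126 and 0.104.

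The other 6 genes were not called in vector cells. DUSP1, an immediate early gene, averaged 391 ± 27.0 CPM in vector EtOH and 329 ± 29.5 CPM in vector Dox (SD, n = 3). All 3 induced libraries lay below the controls, but the log2 difference of -0.25 ± 0.11 had an adjusted p of 0.107 (edgeR). DUSP1 was called lower in 3 of 21 alternatives. These were DESeq2, the study's own test (adjusted p = 0.0437), edgeR with a replicate block and a GC covariate (0.0304), and edgeR without vector Dox replicate 1 (0.0493). DUSP4 differed by -0.12 (95% confidence interval -0.35 to 0.11), SPRY2 by 0.17 (-0.09 to 0.44), SPRY4 by -0.10 (-0.39 to 0.19), SPRED1 by -0.15 (-0.34 to 0.03) and SPRED2 by -0.22 (-0.50 to 0.06) on the log2 scale. All 5 intervals include 0. SPRED2 was at 29.9, 47.4 and 40.6 CPM in vector Dox, the widest relative spread of any of the 10 genes in any group (coefficient of variation 22.4%), and without vector Dox replicate 2 its difference was -0.39 with an adjusted p of 0.0329. Over the 21 alternatives the adjusted p ran from 0.0304 to 0.328 for DUSP1 and from 0.0329 to 0.65 for SPRED2.

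**Figure D2:**
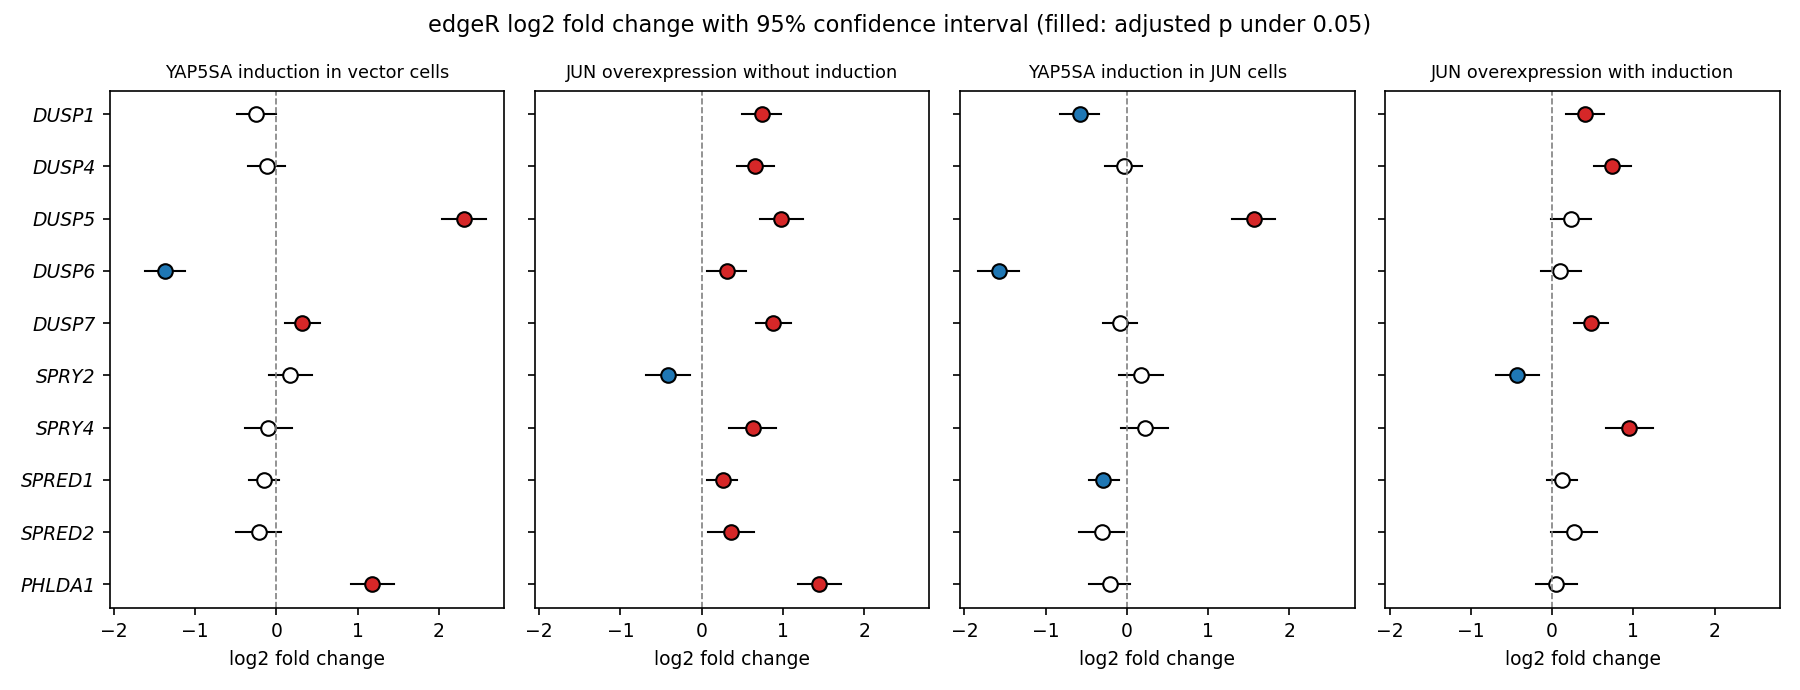
Log2 fold change (horizontal axis) of each gene (vertical axis) in the 4 comparisons between groups, with the 95% confidence interval as a line. Filled points passed the test, red for higher and blue for lower. DUSP5 at 2.31 and 1.56 and DUSP6 at -1.37 and -1.58 kept their directions in both inductions. With JUN, 9 of 10 points lie right of 0 both without and with Dox. Of these, 9 are filled without Dox and 4 with Dox.

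The second comparison asked what JUN did to these genes without YAP5SA induction. It is not independent of the first, since both used the vector EtOH libraries. In JUN EtOH cells, 9 of the 10 genes were called higher and SPRY2 alone was called lower. The background shares were 20.1% of all genes called higher and 18.9% called lower. The median log2 fold change of the 10 genes was 0.64, beside 0.00 over all genes tested. PHLDA1 rose most, 2.72-fold, and all 5 phosphatases rose, from 1.24-fold for DUSP6 to 1.98-fold for DUSP5.

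PHLDA1 stood at 333, 274 and 249 CPM in the 3 JUN EtOH libraries, each above the highest vector EtOH value of 116 CPM (log2 fold change 1.44 ± 0.12, adjusted p = 5.77e-07, edgeR). DUSP5 stood at 39.6, 34.3 and 27.3 CPM, above the 16.7 to 17.7 CPM of the controls (0.98 ± 0.13, adjusted p = 3.29e-05). The JUN EtOH level of DUSP5 was still lower than its level in vector Dox cells, by 2.51-fold. DUSP7 was at 112, 125 and 109.7 CPM, against a highest control value of 68.5 CPM (0.88 ± 0.10, adjusted p = 1.12e-05).

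The phosphatases that act on JNK rose as well. DUSP1 was at 386, 420.0 and 367 CPM in vector EtOH and at 711, 665 and 580.4 CPM in JUN EtOH, a log2 fold change of 0.74 ± 0.11 (adjusted p = 0.000138, edgeR). DUSP4 was at 185, 148 and 182 CPM in vector EtOH and at 285, 254 and 273 CPM in JUN EtOH (0.66 ± 0.11, adjusted p = 0.000298). In both genes every JUN library lay above every control library. DUSP6 was at 99.9, 94.1 and 88.0 CPM in JUN EtOH, above a highest control of 84.0 CPM by a narrow margin (0.31 ± 0.11, adjusted p = 0.04).

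The Sprouty genes went apart from each other. SPRY4 was at 47.0, 34.4 and 41.2 CPM in vector EtOH and at 72.4, 62.2 and 55.7 CPM in JUN EtOH (0.63 ± 0.14, adjusted p = 0.00224, edgeR). SPRY2, whose protein binds the ubiquitin ligase CBL and the adaptor GRB2, was at 21.1, 25.4 and 19.3 CPM in vector EtOH and at 17.4, 16.8 and 14.9 CPM in JUN EtOH (-0.42 ± 0.13, adjusted p = 0.0174). The groups overlapped for neither gene. SPRED1, which brings the RAS inhibitor neurofibromin to the membrane, was at 81.4, 80.7 and 79.5 CPM in vector EtOH and at 98.1, 91.7 and 99.0 CPM in JUN EtOH (0.26 ± 0.09, adjusted p = 0.0278). SPRED2 was at 47.6, 45.9 and 43.9 CPM in vector EtOH and at 62.2, 59.1 and 55.1 CPM in JUN EtOH (0.36 ± 0.13, adjusted p = 0.0413). All 6 JUN values of the SPRED genes exceeded their controls, and with DUSP6 they had the smallest rises.

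The count of 10 calls with JUN alone moved with the libraries used, and was lowest without vector EtOH replicate 2. Without that library 6 genes were called, all higher, and DUSP6 (adjusted p = 0.119), SPRY2 (0.0971), SPRED1 (0.068) and SPRED2 (0.0937) were not. Their log2 fold changes were then 0.28 for DUSP6, -0.30 for SPRY2, 0.26 for SPRED1 and 0.36 for SPRED2, against 0.31, -0.42, 0.26 and 0.36 with all libraries. Without vector EtOH replicate 3 or JUN EtOH replicate 1, 7 genes were called. Calls over all genes fell as well, from 5766 of 14775 with every library to 4188 of 14951 without vector EtOH replicate 2. They were 4448 of 14963 without vector EtOH replicate 3 and 3823 of 14958 without JUN EtOH replicate 1. SPRY2 was also lost without JUN EtOH replicate 3 (0.0674). DUSP6 was also lost without vector EtOH replicate 3 (0.14), vector Dox replicate 3 (0.0507), JUN EtOH replicate 1 (0.145) or JUN EtOH replicate 2 (0.0913). SPRED1 was also lost without vector EtOH replicate 1 (0.0603) or 3 (0.0794), or JUN EtOH replicate 1 (0.0924) or 3 (0.08). SPRED2 was also lost without vector EtOH replicate 1 (0.0653) or 3 (0.117), vector Dox replicate 3 (0.0537), JUN EtOH replicate 1 (0.135) or 2 (0.0944), or JUN Dox replicate 2 (0.057). Across the 21 settings tried, adjusted p values ran from 0.00851 to 0.145 for DUSP6, 0.00895 to 0.0971 for SPRY2, 0.00814 to 0.0924 for SPRED1 and 0.00242 to 0.135 for SPRED2. DUSP1, DUSP4, DUSP5, DUSP7, SPRY4 and PHLDA1 were called under all 21 alternatives run.

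The third comparison followed YAP5SA induction in cells that already overexpressed JUN. DUSP5 rose 2.94-fold and DUSP6 fell 2.99-fold, and DUSP1 and SPRED1 fell 1.49-fold and 1.22-fold. In this comparison 11.2% of all genes were called higher and 10.3% lower, against 1 of the 10 genes called higher and 3 called lower. The median log2 fold change was -0.15 for the 10 genes and 0.00 for all genes tested. PHLDA1, which rose in vector cells, was not called here.

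DUSP5 stood at 98.2, 107 and 92.6 CPM in the JUN Dox libraries, above the 27.3 to 39.6 CPM of JUN EtOH (log2 fold change 1.56 ± 0.12, adjusted p = 6.33e-07, edgeR). DUSP6 stood at 30.7, 35.1 and 28.6 CPM, below the 88.0 to 99.9 CPM of JUN EtOH (-1.58 ± 0.12, adjusted p = 3.65e-07). With and without the JUN vector, the induced levels of DUSP6 were close, 31.5 ± 3.34 and 29.3 ± 3.54 CPM (SD, n = 3). DUSP1 stood at 443, 449 and 418 CPM, below the lowest JUN EtOH value of 580.4 CPM (-0.58 ± 0.11, adjusted p = 0.00177). SPRED1 stood at 77.7, 80.3 and 78.6 CPM, below the lowest JUN EtOH value of 91.7 CPM (-0.29 ± 0.09, adjusted p = 0.026).

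The call of SPRED1 was narrow. It was lost without JUN EtOH replicate 1 (adjusted p = 0.0906) or 3 (0.0875), or JUN Dox replicate 2 (0.0668) or 3 (0.0587). SPRED2 stood at 46.0, 46.9 and 49.5 CPM, below all 3 JUN EtOH libraries, with a difference of -0.31 ± 0.13 that did not pass (adjusted p = 0.11) and that passed without vector Dox replicate 1 (0.0153). Over the 21 alternatives the adjusted p ran from 0.00291 to 0.0906 for SPRED1 and from 0.0153 to 0.281 for SPRED2. PHLDA1 stood at 251, 255 and 232 CPM, which overlapped the JUN EtOH values, and differed by -0.21 (95% confidence interval -0.47 to 0.04). DUSP4 differed by -0.04 (-0.27 to 0.19), DUSP7 by -0.08 (-0.29 to 0.13), SPRY2 by 0.17 (-0.10 to 0.44) and SPRY4 by 0.22 (-0.07 to 0.51), none of them called.

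The fourth comparison set JUN against the vector in cells given Dox. DUSP4, SPRY4, DUSP7 and DUSP1 were called higher with JUN and SPRY2 lower, 4 and 1 of the 10 genes, beside 18.4% of all genes called higher and 17.2% called lower. The median log2 fold change was 0.25, against 0.00 over all genes tested. SPRY4 had the largest difference, 1.93-fold, from 33.6, 42.8 and 38.3 CPM in vector Dox to 82.6, 69.4 and 70.0 CPM in JUN Dox (0.95 ± 0.14, adjusted p = 8.73e-05, edgeR). DUSP4 went from 142, 166 and 166 CPM to 256, 261 and 274 CPM (0.74 ± 0.11, adjusted p = 0.000105). For both genes every JUN library was above every vector library, as it was without induction.

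DUSP7 was at 118, 111 and 101 CPM in JUN Dox (0.48 ± 0.10 above vector Dox on the log2 scale, adjusted p = 0.002, edgeR). DUSP1 was 0.41 ± 0.11 higher (adjusted p = 0.0106), a call that was lost without vector Dox replicate 3 (0.0556). SPRY2 was at 22.6, 28.3 and 23.4 CPM in vector Dox and at 19.7, 18.2 and 17.5 CPM in JUN Dox (-0.43 ± 0.13, adjusted p = 0.0167). Its call was lost without vector Dox replicate 2 (0.0718) or JUN Dox replicate 2 (0.0531). SPRY2 was the one gene of the 10 with lower levels under JUN in both treatments. DUSP5 differed by 0.23 (95% confidence interval -0.02 to 0.48), DUSP6 by 0.10 (-0.14 to 0.35), SPRED1 by 0.12 (-0.06 to 0.31), SPRED2 by 0.27 (-0.01 to 0.55) and PHLDA1 by 0.05 (-0.20 to 0.31), none of them called. For SPRED2 the difference without vector Dox replicate 2 was 0.44, with an adjusted p of 0.0143. Over the 21 alternatives the adjusted p ran from 0.000652 to 0.0556 for DUSP1, 0.00735 to 0.0718 for SPRY2 and 0.0143 to 0.39 for SPRED2.

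Whether the response to YAP5SA itself differed with JUN was tested as an interaction: the log2 fold change with Dox in the JUN population, less the same value in the vector population. This term was called for few genes, 0.291% of all genes higher and 0.826% lower. Of the 10 genes, PHLDA1 and DUSP5 were called lower and none higher, with a median of -0.17 beside 0.01 over all genes. At an unadjusted p under 0.05 there were 3 of the 10 genes and 1330 of all genes. PHLDA1 had an interaction of -1.39 ± 0.17 (adjusted p = 0.000488, edgeR): its log2 fold change with Dox was 1.18 with the empty vector and -0.21 with the JUN vector. It was called under all 20 alternatives, with adjusted p values of at most 0.00317. Its final levels were close, 237 ± 16.6 CPM in vector Dox and 246 ± 12.2 CPM in JUN Dox (SD, n = 3). The starting levels were 105 ± 12.2 CPM in vector EtOH and 285 ± 42.9 CPM in JUN EtOH.

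DUSP5 had an interaction of -0.76 ± 0.17 (adjusted p = 0.0493, edgeR), from a log2 induction of 2.31 in vector cells to 1.56 in JUN cells. The final levels were close, 84.7 ± 6.56 CPM in vector Dox and 99.2 ± 7.27 CPM in JUN Dox (SD, n = 3), while the starting levels were 17.0 ± 0.551 and 33.7 ± 6.15 CPM. The call of DUSP5 was marginal: 13 of 20 alternatives lost it, and its estimate stayed between -0.89 and -0.63 (adjusted p 0.00371 to 0.15). Leaving out any library other than JUN EtOH replicate 3 took its adjusted p above the threshold, to between 0.0582 (without vector Dox replicate 1) and 0.15 (without JUN EtOH replicate 1). In those cases PHLDA1 was the 1 gene of the 10 still called.

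For the remaining 8 genes a difference between the inductions was not shown. DUSP7 came nearest, at -0.40 (95% confidence interval -0.70 to -0.10, adjusted p = 0.29), followed by DUSP1 at -0.33 (-0.66 to 0.00, adjusted p = 0.56). SPRY4 was at 0.32 (-0.09 to 0.73) and DUSP6 at -0.21 (-0.55 to 0.14). DUSP4 at 0.08, SPRY2 at -0.01, SPRED1 at -0.13 and SPRED2 at -0.09 lay close to 0, with intervals reaching from -0.48 to 0.41 at most. The fall of DUSP6 under YAP5SA was estimated at 2.58-fold and 2.99-fold in the vector and JUN cells, and the interval of the difference includes 0.

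**Figure D3:**
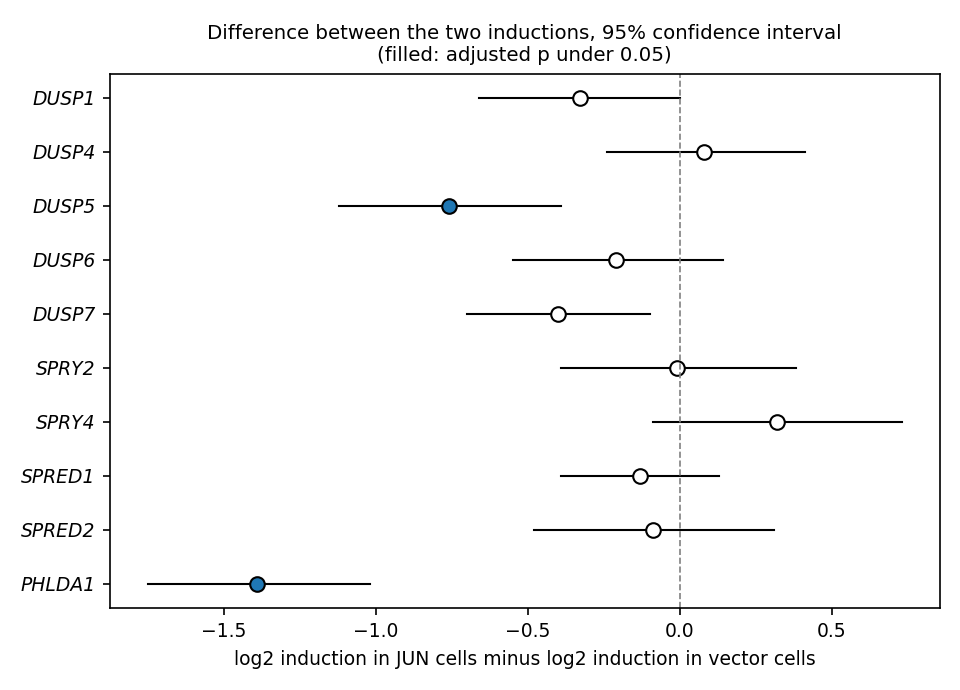
Interaction of each gene (vertical axis), the log2 fold change with Dox under the JUN vector less that under the empty vector (horizontal axis), with its 95% confidence interval as a line. Filled points passed the test: PHLDA1 at -1.39 and DUSP5 at -0.76. The other 8 points are open.

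Ordering the 4 groups by level separated several patterns. DUSP5 ran from vector EtOH through JUN EtOH to vector Dox and JUN Dox, and its first 2 steps passed the test while the last did not (log2 step 0.23, adjusted p = 0.144). DUSP6 ran from vector Dox and JUN Dox, which did not differ beyond their spread (0.10, adjusted p = 0.514), to vector EtOH (step 1.27, adjusted p = 6.71e-07) and JUN EtOH. PHLDA1 had 1 low group, vector EtOH, while vector Dox, JUN Dox and JUN EtOH followed each other without a step that passed (0.05 and 0.21).

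DUSP4 and SPRY4 each split into the 2 vector groups below and the 2 JUN groups above, with single called steps of 0.61 (adjusted p = 0.000401) and 0.63 (adjusted p = 0.00224) between them. Within those pairs no step passed. DUSP7 rose from vector EtOH to vector Dox and then to JUN Dox, and its 2 JUN groups did not differ beyond their spread. DUSP1 and SPRED1 had JUN EtOH at the top, above the next group by 0.58 (adjusted p = 0.00177) and 0.26 (adjusted p = 0.0278). For SPRY2, whose order ran JUN EtOH, JUN Dox, vector EtOH and vector Dox, and for SPRED2, no single step between neighbours passed.

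Pairs of the genes also varied together. Over the 12 libraries, which share the 4 group means, the Pearson correlation of log2 CPM was 0.94 between DUSP4 and SPRY4 and 0.90 between SPRED1 and SPRED2. It was -0.85 between DUSP5 and DUSP6 and -0.85 between DUSP4 and SPRY2. DUSP7 followed SPRY4 at 0.85 and PHLDA1 at 0.84, while DUSP6 and DUSP7, the cytoplasmic phosphatases, showed 0.01. SPRY2 was negatively correlated with 8 of the other 9 genes. These values describe the pattern over groups, since 12 libraries in 4 groups are not 12 independent conditions.

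**Figure D4:**
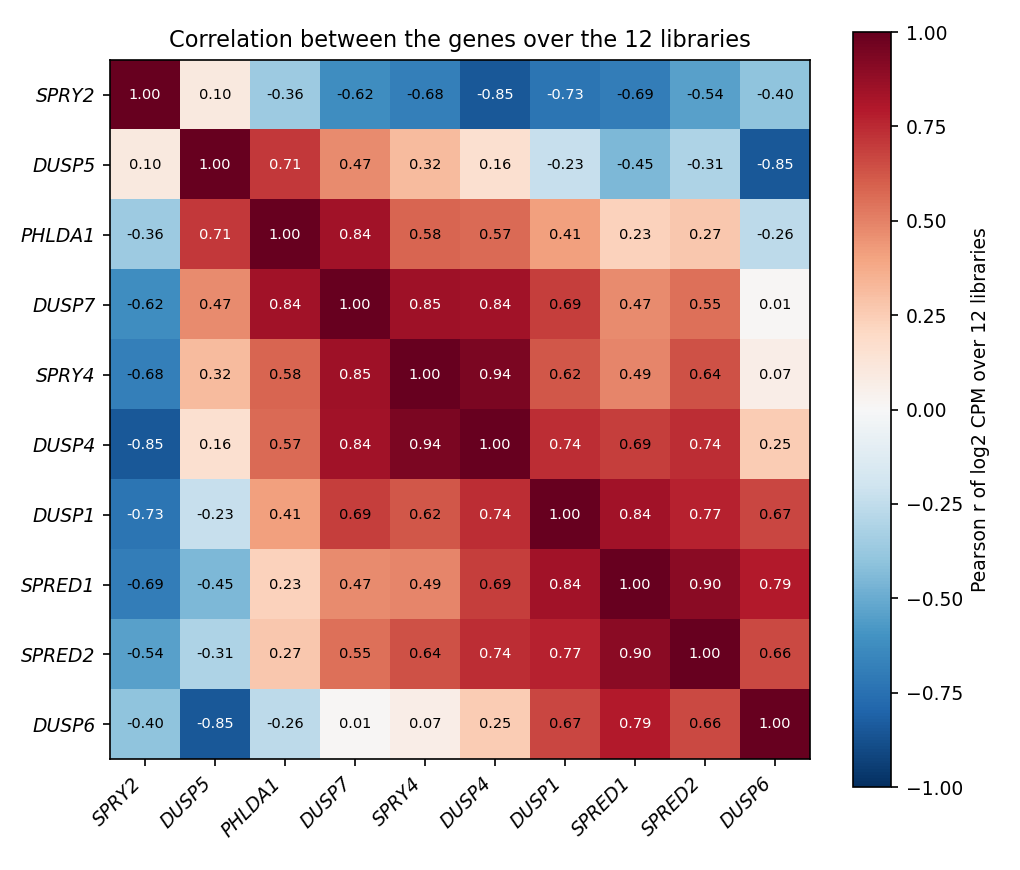
Pearson correlation of log2 CPM between each pair of genes over the 12 libraries, with red for positive and blue for negative values. DUSP4 and SPRY4 reach 0.94, and DUSP5 and DUSP6 stand at -0.85. SPRY2 is blue against all other genes except DUSP5 at 0.10.

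Taking every gene that averaged 5 CPM or more, the closest patterns over the 12 libraries were as follows. IGFBP3 and SEMA7A each correlated with DUSP5 at 0.99. ARHGEF4 was nearest to DUSP6, at 0.99. AAK1 and ACP2 were nearest to DUSP4 (0.99 each), CPEB4 and BTBD7 to SPRY4 (0.98 each), and GLB1 and SUSD6 to DUSP1 (0.97 each). LEPROT at 0.96 and SECISBP2 at 0.95 were nearest to PHLDA1. The nearest to DUSP7 were TVP23C-CDRT4 and PXDN (0.97 each), to SPRED1 SH3RF3 (0.98) and NBR1 (0.96), and to SPRED2 RREB1 (0.97) and CDC42BPB (0.96). SPRY2 had the loosest neighbours, FYTTD1 at 0.92 and FAM107B at 0.91.

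Relatives of the 10 genes were taken as a list of 11 other DUSP, Sprouty and SPRED genes, all of which were tested. With YAP5SA in vector cells 5 were called higher and 4 lower (median -0.24, beside 0.01 over all genes, of which 15.6% were higher and 14.4% lower), with DUSP14 at the top (log2 fold change 1.12 ± 0.09) and SPRY3 at the bottom (-2.54 ± 0.30). With JUN alone 4 were called higher and 4 lower (median 0.09, all genes 20.1% and 18.9%), from SPRED3 at 1.58 ± 0.20 to DUSP9 at -2.52 ± 0.37. The relatives thus divided in both comparisons. In JUN cells YAP5SA gave 3 higher and 5 lower (median 0.34, all genes 11.2% and 10.3%), from DUSP14 at 1.36 ± 0.09 to DUSP10, a phosphatase for JNK and p38, at -1.32 ± 0.16. With Dox in both, JUN gave 4 higher and 4 lower (median 0.07, all genes 18.4% and 17.2%), from SPRED3 at 2.40 ± 0.23 to DUSP9 at -1.86 ± 0.35. None of the 11 was called in the interaction, which was called for only 0.291% of all genes higher and 0.826% lower. The values at the low end rest on few reads for 2 genes. DUSP9 had 5 to 10 counts per library in JUN EtOH and 5 to 17 in JUN Dox, and SPRY3 had 9 to 20 in vector Dox.

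Other genes read as ERK output also divided. Of 10 such genes, 4 were called higher and 4 lower with YAP5SA in vector cells (median 0.10, all genes 15.6% and 14.4%), from the ephrin receptor gene EPHA4 at 2.27 ± 0.29 to the ETS factor gene ETV1 at -1.95 ± 0.19. JUN alone gave 4 higher and 3 lower (median 0.22, all genes 20.1% and 18.9%), from IER3 at 1.19 ± 0.16 to EGR1 at -0.91 ± 0.13. YAP5SA in JUN cells gave 4 higher and 2 lower (median 0.12, all genes 11.2% and 10.3%), with EPHA4 (1.57 ± 0.27) and ETV1 (-0.93 ± 0.18) again at the ends. EPHA4 had few reads, 14 counts in each vector EtOH library and 17 to 24 in JUN EtOH. JUN with Dox gave 4 higher and 3 lower (median -0.16, all genes 18.4% and 17.2%), from IER3 at 1.27 ± 0.16 to CCND1, the cyclin D1 gene, at -1.12 ± 0.12. CCND1 (interaction -0.99 ± 0.17, adjusted p = 0.00879, edgeR) and EPHA2 (-0.72 ± 0.15, adjusted p = 0.0337) were called lower in the interaction, as PHLDA1 and DUSP5 were. Over all genes this term was called higher for 0.291% and lower for 0.826%, so lower was the commoner direction of a call.

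Upstream of ERK, 11 other inhibitors of receptor and RAS signalling were listed and 10 were tested, since RASAL1 did not pass the filter. With YAP5SA in vector cells none was called higher and 2 were called lower, CBLB (-1.15 ± 0.22) and ERRFI1 (-1.11 ± 0.11), which encodes an inhibitor of the epidermal growth factor receptor (list median -0.06, all genes 15.6% higher and 14.4% lower). With JUN alone 4 were called higher, with CBLB at 1.08 ± 0.19 the highest, and 2 lower, with CBLC at -0.39 ± 0.12 the lowest (median 0.29, all genes 20.1% and 18.9%). YAP5SA in JUN cells gave 1 higher, LRIG1 at 0.46 ± 0.15, and 1 lower, ERRFI1 at -0.43 ± 0.11 (median -0.09, all genes 11.2% and 10.3%). JUN with Dox gave 6 higher, from CBLB at 1.80 ± 0.21, and 1 lower, CBLC at -0.34 ± 0.12 (median 0.44, all genes 18.4% and 17.2%). No gene of this list was called in the interaction (all genes 0.291% and 0.826%).

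Of 19 genes of the cascade from the receptor to ERK, 2 were called higher and 6 lower with YAP5SA in vector cells (median -0.13), beside 15.6% and 14.4% of all genes, from PTPN11 at 0.40 ± 0.13 to the scaffold gene KSR1 at -1.12 ± 0.20. JUN alone gave 6 higher and 1 lower (median 0.30), beside 20.1% and 18.9% of all genes, from the exchange factor gene SOS2 at 0.89 ± 0.14 to MAP2K2 at -0.49 ± 0.16. YAP5SA in JUN cells gave none higher and 2 lower (median -0.08, all genes 11.2% and 10.3%), KSR1 (-0.91 ± 0.19) and SOS2 (-0.46 ± 0.14). JUN with Dox gave 6 higher and none lower (median 0.16, all genes 18.4% and 17.2%), SOS2 leading at 1.25 ± 0.15. No gene of this list was called in the interaction (all genes 0.291% and 0.826%).

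Of 16 genes of the JNK and p38 cascades, 2 were called higher and 4 lower with YAP5SA in vector cells (median -0.01, all genes 15.6% and 14.4%), from MAP3K1 at 0.96 ± 0.20 to MAP2K6 at -2.31 ± 0.49. JUN alone gave 2 higher and 3 lower (median 0.12, all genes 20.1% and 18.9%), from MAPK14, which encodes p38 alpha, at 0.37 ± 0.08 to MAPK12 at -0.45 ± 0.14. YAP5SA in JUN cells gave 1 higher, MAPK8, which encodes JNK1, at 0.62 ± 0.17, and 4 lower, down to MAP2K6 at -1.40 ± 0.43 (median -0.14, all genes 11.2% and 10.3%). JUN with Dox gave 2 higher, from MAP3K7 at 0.31 ± 0.11, and 4 lower, down to MAP3K1 at -0.78 ± 0.20 (median -0.03, all genes 18.4% and 17.2%). The interaction gave none (all genes 0.291% and 0.826%). The values of MAP2K6 rest on few reads, with 3 to 5 counts per library in vector Dox and 7 to 11 in JUN Dox.

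Phosphatase genes of the ERK cascade outside the DUSP family were a list of 6, of which PTPN5 and PTPN7 did not pass the filter. With YAP5SA in vector cells 3 of the 4 tested were called higher, all of them genes of protein phosphatase 2A subunits, between 0.41 ± 0.09 for PPP2CA and 0.43 ± 0.10 for PPP2CB (list median 0.41, all genes 15.6% higher and 14.4% lower). In JUN cells 2 were called higher, PPP2CA (0.33 ± 0.09) and PPP2CB (0.37 ± 0.10), with a median of 0.25 and 11.2% of all genes called higher. JUN alone gave 1 higher, PPP2R2A (0.42 ± 0.10; 20.1% of all genes). JUN with Dox gave none (all genes 18.4% and 17.2%), and neither did the interaction give any (all genes 0.291% and 0.826%). DUSP5 at 2.31 was thus the only gene of the listed phosphatases, of either family, above 2 on the log2 scale with YAP5SA in vector cells.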

How the data were processed

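RNA of 12 MCF10A libraries was sequenced by the authors as single-end reads after poly(A) selection with a NEBNext kit, aligned to hg19 with Bowtie2 and counted per Entrez gene with countOverlaps. The gene annotation and strand setting of the counting are not given in the sources used here. The submitters' processing notes name cutadapt 4.2 and Bowtie2 2.3.5.1. The authors deposited raw counts, without normalization. Groups came from the sample titles. Of 23459 gene IDs, 23308 (99.4%) were matched to a symbol.

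Counts were tested with edgeR 4.0.16 (R 4.3.3): TMM factors, filterByExpr (minimum count 10, minimum total 15), 1 quasi-likelihood model with robust dispersion over all 12 libraries and a mean per group, and Benjamini-Hochberg adjustment over the 14775 genes that passed. The threshold for a call was an adjusted p of 0.05. The study's own test, DESeq2 (1.42.0 here), was run as an alternative. CPM are counts per 1000000 of the TMM-adjusted total of the genes tested, and per-kilobase levels used the merged GENCODE v44 exons on GRCh37. Intervals came from the SE and the moderated degrees of freedom. Scripts were tested on simulated counts.

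Named genes were the 10 genes, JUN and YAP1, the 2 genes most correlated with each of the 10, and the called genes with the highest and lowest log2 fold change of each pathway list in each comparison. Marker genes and list genes that failed the filter were named as well, outside that rule. Of the marker genes and of the most correlated genes, 1 each is not reported here. The members and lists were chosen with earlier results of these data known. Promoter windows came from RefSeq (GRCh38.p14). The alternatives were DESeq2, RLE and upper-quartile factors, no filter and a mean of at least 5 CPM, only the libraries of the comparison, a replicate block, a GC covariate, both together, and each library left out in turn. Depth was 18594867 to 28993487 counts per library.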

Additional observations from a re-analysis of the deposited data

Results flagged for a closer look

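The response to YAP5SA differed between JUN cells and vector cells for 2 of the 10 genes by the interaction test of edgeR. That test called 0.291% of all genes higher and 0.826% lower. PHLDA1 had an interaction of -1.39 on the log2 scale: it was induced in vector cells, with a log2 fold change of 1.18, and had a value of -0.21 in JUN cells. Its mean without Dox was 105 CPM in vector cells and 285 CPM in JUN cells, and with Dox 237 and 246 CPM. DUSP5 had an interaction of -0.76, with inductions of 2.31 and 1.56, and its call was lost in 13 of 20 alternatives. JUN itself had an interaction of -2.03 in the same fit, with counts that include the vector, and its part in these 2 results was not tested. Groups of 3 libraries were too small for the test of single outlying samples.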

How the results depend on the processing

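The direction of every call among the 10 genes held under all alternatives. Of 1040 recomputed values of single genes, 973 kept their side of the threshold and their direction, 49 lost the call, 7 gained one and 11 changed sign, none of them called. The signs that changed were those of SPRY2 in the interaction (0.02 with upper-quartile factors, 0.00 with no filter, and -0.12 to 0.10 with single libraries left out), SPRED2 in the interaction (-0.24 to 0.07, the latter without vector Dox replicate 2) and SPRY4 with YAP5SA in vector cells (-0.22 to 0.02, the latter without vector EtOH replicate 1). Leaving out 1 library in turn gave 3 to 5 called genes with YAP5SA in vector cells, 6 to 10 with JUN alone, 3 to 5 with YAP5SA in JUN cells, 4 to 5 with JUN under Dox and 1 to 2 in the interaction. Over all genes, of which 14927 to 14990 were tested, the same fits called 3326 to 4865 with YAP5SA in vector cells. They called 3823 to 6765 with JUN alone and 2082 to 3861 with YAP5SA in JUN cells. With JUN under Dox the range was 4025 to 5539, and in the interaction 97 to 242. Among the 10 genes the interaction count was also 1 with upper-quartile factors and with a mean of at least 5 CPM. DUSP5 had adjusted p values of 0.0615 and 0.0511 in these 2 edgeR fits, and the cause was not tested. Over all genes they called 168 of 14775 and 153 of 11404. DESeq2 called 358 genes in the interaction against 165, including the same 2 of the 10. The lowest count of any of the 10 genes was 318, and whether depth or the number of libraries limits the smaller differences was not tested.

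The labels do not say that a replicate number marks a shared batch. The library names are numbered in consecutive runs by replicate. Deviations of libraries with the same number correlated at -0.26 to 0.47 (median 0.09, against -0.05 for other numbers). Of the 12 libraries, 7 correlated best with one of their own number. These values do not settle whether the numbers mark pairs, and the main fit did not use them. With the replicate block, 4 genes were called with YAP5SA in vector cells, 10 with JUN alone, 4 with YAP5SA in JUN cells, 5 with JUN under Dox and 2 in the interaction. Over all 14775 genes the block gave 4588, 5871, 3256, 5329 and 197 calls in the same order.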
